A study of Mus musculus with 32 samples.

Results

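The replication-dependent histone genes were examined across the whole study. They were taken as every gene whose GENCODE vM21 symbol begins with Hist1h, Hist2h, Hist3h or Hist4h and whose gene type is protein-coding. The rule gave 67 genes of the 55487 identifiers in the deposited tables, and 63 of the 67 had enough counts to be tested among 14869 genes. No expression value entered the rule. RNA was sequenced from mouse fetal liver hematopoietic progenitors immortalized with ER-HOXB8, a HOXB8 protein fused to an estrogen receptor domain that keeps progenitors growing while estradiol is in the medium. The 2 genotypes compared were each 1 line: hi-77-/- cells, which lack a distant upstream enhancer of Gata2 on both alleles (called mutant here), and hi-77+/+ cells (called wild-type here). Each line was treated for 4 h with IFNg at 1 ng/ml, with Pam3CSK4 at 100 ng/ml, with both agents, or with vehicle. IFNg is interferon gamma, and Pam3CSK4 is a synthetic lipopeptide agonist of the TLR1 and TLR2 pair of Toll-like receptors. This gave 8 groups of 4 libraries: mutant IFNg, mutant Pam3CSK4, mutant both agents, mutant vehicle, wild-type IFNg, wild-type Pam3CSK4, wild-type both agents and wild-type vehicle. All groups carried ER-HOXB8 and grew in medium with stem cell factor and estradiol. The labels do not say that replicates came from separate cultures, so a p-value here reflects only how these libraries scatter, which may be technical.

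Histones package DNA into nucleosomes. H2A, H2B, H3 and H4 form the core particle, and H1 binds the linker DNA between particles. Most histone protein is made during S phase from clustered genes without introns, whose mRNAs end in a conserved stem-loop in place of a poly(A) tail. The stem-loop binding protein, encoded by Slbp, holds that end through processing, translation and decay, and NPAT, a target of cyclin E and its kinase, activates transcription of the clusters. The libraries were made from total RNA after removal of ribosomal RNA, so mRNAs without a poly(A) tail were retained. In bulk RNA, fewer cells in S phase and less histone mRNA per cell cannot be told apart.

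The 67 genes comprised 6 H1, 18 H2A, 18 H2B, 12 H3 and 13 H4 genes. The Hist1 cluster on chromosome 13 held 54 of them, between positions 21715763 and 23934851 (GRCm38), and 91.0% of the members' counts. The Hist2 cluster on chromosome 3 held 10 genes and 7.34% of the counts. The Hist3 pair on chromosome 11 had 0.655% and Hist4h4 on chromosome 6 had 0.991%. The 4 genes with too few counts to test were Hist1h1t, Hist1h2aa and Hist1h2ba, which are known as testis histone genes, and Hist3h2ba. They had 95, 2, 5 and 118 counts over all 32 libraries.

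The stem-loop marks these genes at the sequence level and is shown here for members whose values are described below. The pattern GGNNCTTTTNAGNGNC, searched on the transcript strand, was present in the annotated transcript of 42 of the 67 genes and in 89 of 141767 annotated mouse transcripts (0.0628%). In the sequences that follow, given 5′ to 3′ with the 16-base match in capitals, H1, H2A, H2B and H3 members have a stem that begins GGCTC and the H4 member has one that begins GGCCC.
Hist1h1c, chr13:23739507-23739532, plus strand: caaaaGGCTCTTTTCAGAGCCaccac
Hist1h2ab, chr13:23751567-23751592, plus strand: acaaaGGCTCTTTTCAGAGCCaccca
Hist1h2bb, chr13:23747198-23747223, plus strand: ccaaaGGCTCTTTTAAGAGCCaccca
Hist1h3b, chr13:23752815-23752840, plus strand: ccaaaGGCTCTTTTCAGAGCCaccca
Hist2h3c1, chr3:96247322-96247347, plus strand: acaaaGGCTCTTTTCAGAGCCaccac
Hist1h4f, chr13:23551286-23551311, minus strand: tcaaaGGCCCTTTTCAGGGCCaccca
All 9 H4 matches began GGCCC and ended GGGCC, so that the stem's base pairs were kept, and all matches in the other classes began GGCTC and ended GAGCC. The loop base that the pattern leaves free was C in most members. It was A in Hist1h2bb and 5 other members. Of the 25 genes without the pattern, 13 have a transcript model that stops at the end of the coding sequence, so their missing match says nothing about the mRNA. Models not limited to coding sequence also lacked a match in other members, among them Hist1h1a (741 bases), Hist1h4j (774 bases) and Hist1h2bc (1156 bases). Hist2h2be, with a 2620-base model, is another. It encodes an H2B variant known from mouse olfactory neurons, and its values stood apart from those of the other members in several comparisons below.

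Promoter sequences (RefSeq, GRCm38.p6; the 250 bases before the annotated start) were matched for 61 members. CCAAT, the box bound by NF-Y, was found on either strand in 82.0% of them and in 33.9% of all 32851 promoters of that length. It was present in all 5 H1, all 18 H2A and all 16 H2B promoters, in 8 of 10 H3 promoters and in 3 of 12 H4 promoters. The octamer ATTTGCAT, bound by Oct1 and known from H2B promoters, was found in 7 H2A and 6 H2B promoters and in no H1, H3 or H4 promoter, against 1.60% of all promoters. TATAAA was found in 28 members, and in 12.4% of all promoters. None of the 3 motifs contains another. The promoters below, 5′ to 3′ on the gene's strand, are those of an H1, an H2B, an H3 and an H4 gene that are highly expressed here, and of Hist2h3c1, which had the largest mutant against wild-type differences under treatment. Capitals mark the motifs on either strand.
Hist1h1a, chr13:23763418-23763667, plus strand: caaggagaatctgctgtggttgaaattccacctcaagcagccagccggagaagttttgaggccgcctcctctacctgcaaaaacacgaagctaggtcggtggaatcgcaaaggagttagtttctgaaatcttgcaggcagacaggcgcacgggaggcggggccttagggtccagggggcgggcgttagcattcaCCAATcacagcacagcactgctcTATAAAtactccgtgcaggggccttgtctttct
Hist1h2bb, chr13:23746484-23746733, plus strand: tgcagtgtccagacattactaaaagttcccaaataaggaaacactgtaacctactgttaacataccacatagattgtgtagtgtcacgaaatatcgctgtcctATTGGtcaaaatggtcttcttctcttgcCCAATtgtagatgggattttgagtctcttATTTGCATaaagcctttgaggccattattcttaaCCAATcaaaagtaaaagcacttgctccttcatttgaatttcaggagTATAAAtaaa
Hist1h3b, chr13:23752095-23752344, plus strand: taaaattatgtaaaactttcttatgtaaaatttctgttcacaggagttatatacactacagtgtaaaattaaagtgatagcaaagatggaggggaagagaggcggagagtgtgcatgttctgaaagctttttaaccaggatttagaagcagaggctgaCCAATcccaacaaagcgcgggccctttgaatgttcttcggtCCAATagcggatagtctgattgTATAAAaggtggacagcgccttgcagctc
Hist1h4f, chr13:23551669-23551918, minus strand: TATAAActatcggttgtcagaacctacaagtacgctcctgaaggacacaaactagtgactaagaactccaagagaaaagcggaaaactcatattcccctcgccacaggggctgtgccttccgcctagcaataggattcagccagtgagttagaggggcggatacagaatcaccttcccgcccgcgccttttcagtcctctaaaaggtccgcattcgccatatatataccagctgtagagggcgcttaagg
Hist2h3c1, chr3:96246435-96246684, plus strand: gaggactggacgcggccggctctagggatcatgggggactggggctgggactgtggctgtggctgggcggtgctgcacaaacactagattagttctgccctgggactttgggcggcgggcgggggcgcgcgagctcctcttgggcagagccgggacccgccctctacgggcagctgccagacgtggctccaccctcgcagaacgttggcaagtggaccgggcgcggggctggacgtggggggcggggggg
The Hist1h1a promoter pairs a CCAAT box with a TATAAA box close to the start. The Hist1h2bb promoter has the octamer as well, between CCAAT boxes. The Hist1h4f window has no CCAAT, and its TATAAA lies at the far end from the start. The Hist2h3c1 window holds none of the 3 motifs.

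Library totals, in 1e6 expected counts, ran between 44.18 and 71.42. Gata2 averaged 6.58 to 7.56 CPM in the mutant groups and 38.6 to 44.4 CPM in the wild-type groups, as the labels imply. All 7 progenitor markers were detected in every group, and hepatocyte markers summed to at most 0.304 CPM in any library. The lines differed in other cell types' markers. Erythroid markers summed to 4.13 to 6.26 CPM in mutant and 58.6 to 106 CPM in wild-type libraries, megakaryocyte markers to 1.79 to 2.83 and 9.62 to 15.0 CPM, and neutrophil markers to 1565 to 1948 and 2187 to 2640 CPM. Mast cell and basophil markers summed to 50.3 to 72.9 CPM in mutant and 267 to 365 CPM in wild-type libraries, and early B markers to 200.1 to 293 CPM in mutant and 34.4 to 44.9 CPM in wild-type libraries; their part in the histone differences was not tested. Another quantity moved with the groups. Structural RNA genes, most of them for small RNAs without a poly(A) tail (6121 genes, among them the spliceosomal, nucleolar and 7SK RNAs, and with all genes of the mitochondrial genome), took 21.1 ± 3.89%, 27.3 ± 2.12%, 23.0 ± 4.77% and 25.7 ± 1.78% of counts in mutant IFNg, Pam3CSK4, both-agent and vehicle libraries, against 15.9 ± 1.87%, 14.8 ± 1.47%, 13.6 ± 0.611% and 23.9 ± 4.17% in the same wild-type groups (SD, n = 4 each). Wild-type vehicle thus had a higher share than the 3 treated wild-type groups. The part of this share in the histone differences was not tested, and most comparisons of the members are also given with the share as a covariate.

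Histone genes took 0.616 ± 0.076% of all counts in mutant cells under IFNg, 0.692 ± 0.057% under Pam3CSK4 and 0.556 ± 0.083% under both agents, against 0.665 ± 0.072% in mutant vehicle. In wild-type cells the shares were 0.573 ± 0.045%, 0.690 ± 0.070% and 0.626 ± 0.064% under the same treatments, against 0.919 ± 0.215% in vehicle, the highest of the 8 group means (SD, n = 4 each). Per transcript length the order was another. The members' summed TPM averaged 5324 ± 876, 4906 ± 253 and 4501 ± 187 in mutant cells under IFNg, Pam3CSK4 and both agents and 4877 ± 408 in mutant vehicle, and 6011 ± 1077, 7489 ± 470 and 7116 ± 724 in wild-type cells under these treatments and 7254 ± 1911 in wild-type vehicle (SD, n = 4 each). On that scale every mutant mean lay below every wild-type mean, and wild-type vehicle did not stand above Pam3CSK4. TPM is scaled to a total that includes the structural RNA genes. Of counts without those genes, the members took 0.783 ± 0.122%, 0.954 ± 0.103% and 0.728 ± 0.154% in mutant cells under IFNg, Pam3CSK4 and both agents. Mutant vehicle had 0.897 ± 0.114%. Wild-type cells had 0.681 ± 0.041%, 0.812 ± 0.096% and 0.724 ± 0.077% under these treatments and 1.22 ± 0.308% in vehicle (SD, n = 4 each). There the mutant mean was below the wild-type mean in vehicle alone. By share of all counts, the 4 wild-type vehicle libraries had 0.816%, 0.671%, 1.15% and 1.04%. Replicates 3 and 4 lay above every other library of the study, and replicate 2 lay within the range of the treated wild-type libraries. The members' called counts that rest on wild-type vehicle are therefore also given without replicates 3 and 4. The other gene lists below, and their single genes, are given on all libraries only.

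**Figure D1:**
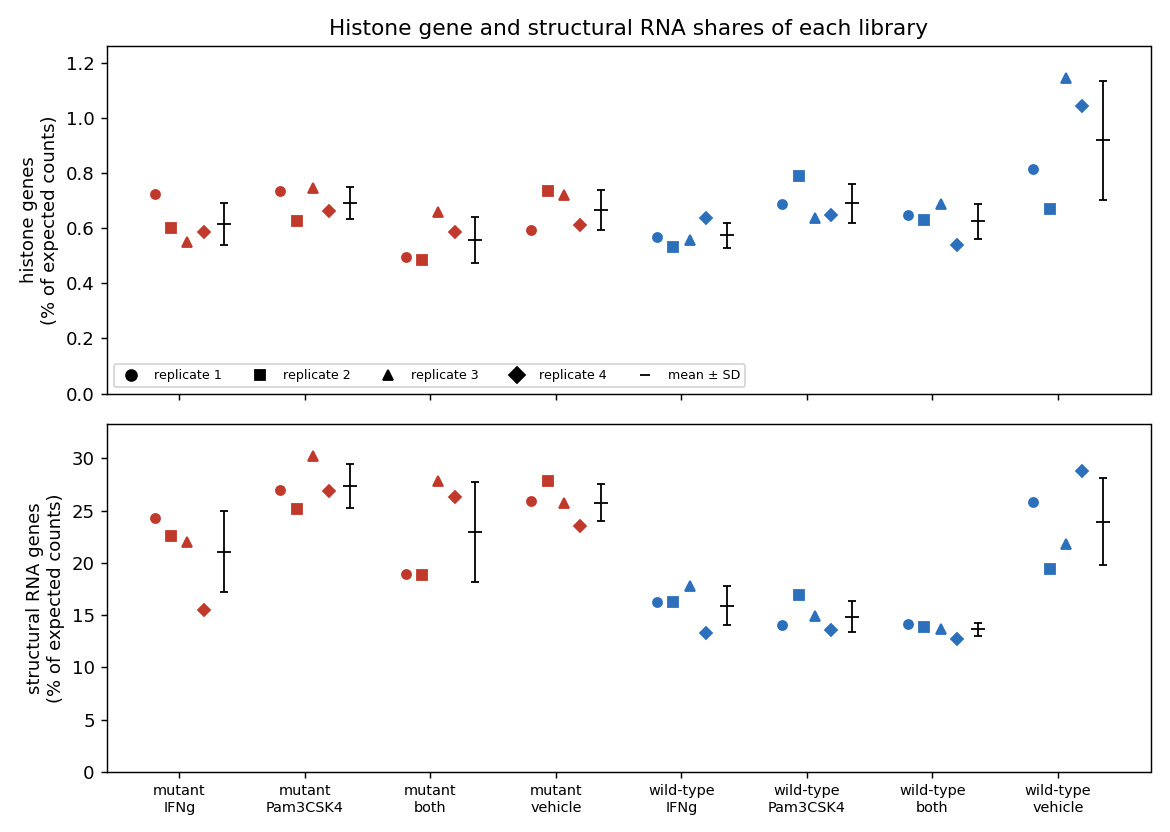
Share of all expected counts in each library (%, y axes) taken by the 67 histone genes (upper panel) and by 6121 structural RNA genes (lower panel), for 4 mutant (red) and 4 wild-type (blue) groups on the x axis. Symbols are replicates and bars mean ± SD. Wild-type vehicle averaged 0.919% histone counts, and its structural share, 23.9%, lay near the mutant groups and above the treated wild-type groups.

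By counts, which grow with transcript length, H1 mRNAs made up the largest class, with a median of 40.7% of the members' counts over the 32 libraries (29.1 to 46.8%). H2B followed with 23.4 to 30.7%, H4 with 11.1 to 23.9%, H3 with 11.5 to 17.9% and H2A with 2.28 to 5.69%. Wild-type vehicle had the lowest mean H1 share, 35.6 ± 5.62%, and the highest mean H4 share, 18.7 ± 4.44% (SD, n = 4). By TPM, which is corrected for the length of the annotated model, H2B was the largest class with 40.8% of the members' level, and H1 had 20.8%. The models end at different points. That of Hist1h1d has 7425 bases, of which 4884 follow the stem-loop, and that of Hist2h2bb has 381 bases of coding sequence only. The order of classes and genes by TPM thus depends on the annotation. On that scale the levels of tested members ran from 0.399 to 692. Hist2h2bb was highest at 692 TPM, followed by Hist1h1a at 658, Hist1h2bb at 432, Hist1h4f at 327 and Hist1h1b at 304 TPM. Of the 63 tested members, 52 averaged 10 CPM or more, and Hist1h2ah (0.406 CPM) and Hist1h2ai (0.180 CPM) averaged under 1 CPM.

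Many members are near copies of each other. In 15 members at least 80% of all 50-base stretches occur in another member. RSEM, which divides reads that match several genes, gave non-whole values for 77.3% of the members' non-zero counts, against 11.1% over all genes (tolerance 0.005). Values of near-identical genes are thus shares of a common pool and are uncertain one by one. Counts summed within each class and cluster, 11 sums in all, are given beside the gene counts. They do not depend on the division within a class and cluster, but they do on that between clusters: some 50-base stretches occur in 16 H2A and in 12 H3 members, and Hist1 holds 13 H2A and 9 H3 genes.

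In wild-type cells most histone genes were lower under every treatment than in vehicle. Of the 63 members, 62 fell and 0 rose under IFNg, 46 fell and 0 rose under Pam3CSK4, and 57 fell and 0 rose under both agents (edgeR's quasi-likelihood test, Benjamini-Hochberg adjusted p under 0.05). Over all tested genes, 17.6% fell and 17.8% rose under IFNg, 11.7% fell and 10.4% rose under Pam3CSK4, and 22.4% fell and 21.2% rose under both agents. The members' median log2 fold change was -1.22 under IFNg, -0.95 under Pam3CSK4 and -0.96 under both agents, while the median of all genes was within 0.028 of 0. Lower levels under all 3 treatments were called for 45 members. The share of all genes lower under all 3 was not counted, and cannot exceed the 11.7% lower under Pam3CSK4. These comparisons share the same wild-type vehicle libraries. At an unadjusted p under 0.05, 62, 58 and 60 members differed in either direction by edgeR, and DESeq2 called 62, 51 and 59 members lower and 0 higher. The share of all genes at the unadjusted threshold was not counted. Besides the structural share, erythroid markers moved with these falls. They summed to 58.6 to 74.8 CPM in the treated and 91.2 to 106 CPM in the vehicle libraries of this line. The mitochondrial genome, which is counted in the structural share, took 3.32%, 2.95% and 2.60% of counts under IFNg, Pam3CSK4 and both agents, against 4.80% in vehicle. The part of these quantities in the result was not tested. The summed counts fell in 11, 10 and 10 of 11 class and cluster sums.

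H1 genes had a median log2 fold change of -0.44 under IFNg, -0.32 under Pam3CSK4 and -0.42 under both agents, and all 5 tested H1 genes fell under each treatment. Hist1h1a, the most abundant histone gene by CPM, had 757, 747, 808 and 751 CPM under IFNg, 863, 888, 857 and 842 CPM under Pam3CSK4 and 780.2, 719, 763 and 759 CPM under both agents, against 1004, 923, 891 and 1054 CPM in wild-type vehicle. Every treated library lay below every vehicle library. The log2 fold changes were -0.34 ± 0.06, -0.17 ± 0.06 and -0.36 ± 0.06 (SE; adjusted p = 3.28e-05, 0.0395 and 9.07e-06 by edgeR's quasi-likelihood test). Hist1h1c, another somatic linker histone, moved further. It had 395, 375, 424 and 325 CPM under IFNg, 364, 481, 347 and 327 CPM under Pam3CSK4 and 347, 353, 349 and 287 CPM under both agents, against 818, 552, 782 and 1090.0 CPM in vehicle. No treated library reached the lowest vehicle library, and the changes were -1.09 ± 0.23, -1.09 ± 0.23 and -1.28 ± 0.23 (adjusted p = 0.000619, 0.00175 and 7.63e-05). Hist1h1b changed by -0.44, -0.23 and -0.33, with overlap of the groups only under Pam3CSK4.

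H2A genes had the lowest medians of the 5 classes, -1.76, -1.48 and -1.72, and 17, 14 and 16 of 17 fell. Hist1h2ab, a core H2A gene, had 19.8, 16.7, 19.4 and 24 CPM under IFNg, 28.2, 28.9, 18 and 23.1 CPM under Pam3CSK4 and 20.5, 21.7, 27 and 13.7 CPM under both agents, against 42.8, 22.8, 79.7 and 76.8 CPM in vehicle. The vehicle libraries spread widely, and replicate 2 alone overlapped the treated libraries. The changes were -1.47 ± 0.33, -1.17 ± 0.32 and -1.41 ± 0.33 (adjusted p = 0.00101, 0.011 and 0.001). Hist1h2an, a low-abundance H2A gene, had 0.743, 0.738, 0.338 and 0.929 CPM under IFNg, 1.13, 1.44, 0.927 and 0.655 CPM under Pam3CSK4 and 0.963, 0.960, 0.858 and 0.465 CPM under both agents, against 3.45, 1.03, 7.13 and 7.05 CPM in vehicle. Its changes were -2.75 ± 0.49, -2.16 ± 0.47 and -2.50 ± 0.48 (adjusted p = 8.7e-05, 0.00202 and 0.000135). Vehicle replicate 2 again lay near the treated values, and overlapped them under Pam3CSK4. Of its 50-base stretches, 85.8% are shared with other members. Hist2h2aa2, the H2A gene with the highest TPM, had 35.4, 28.5, 27.4 and 51.3 CPM under IFNg against 79.6, 40.7, 173 and 127 CPM in vehicle, and overlapped it.

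H2B genes had medians of -0.63, -0.33 and -0.41, and 15, 5 and 12 of 16 fell. Hist1h2bb had 280.1, 260.2, 293 and 230.2 CPM under IFNg, 251, 311, 251 and 242 CPM under Pam3CSK4 and 251, 234, 238 and 213 CPM under both agents, against 489, 329, 448 and 555 CPM in vehicle. The vehicle libraries were all higher than the treated ones, and the changes were -0.78 ± 0.14, -0.79 ± 0.14 and -0.96 ± 0.14 (adjusted p = 0.000135, 0.000517 and 5.74e-06). Hist1h2br was the single member not called under IFNg. It had 67, 46.8, 49.2 and 61.1 CPM there, against 43.1, 66.8, 60.5 and 65.4 CPM in vehicle, a log2 difference of -0.07 ± 0.20 (adjusted p = 0.813). Hist2h2be had 2.93, 3.46, 2.74 and 3.11 CPM under IFNg, 3.80, 4.77, 3.84 and 3.49 CPM under Pam3CSK4 and 2.34, 3.07, 2.5 and 2.81 CPM under both agents, against 5.10, 4.79, 4.04 and 4.57 CPM in vehicle. It fell under IFNg and under both agents without overlap (-0.60 ± 0.11 and -0.79 ± 0.11; adjusted p = 4.69e-05 and 3.62e-07). Under Pam3CSK4 the groups overlapped and the difference of -0.22 ± 0.11 did not pass (adjusted p = 0.142).

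H3 genes had medians of -1.25, -0.97 and -0.94, and 12, 11 and 11 of 12 fell. Hist1h3b had 116, 109, 113 and 111 CPM under IFNg, 126, 169.7, 121 and 112 CPM under Pam3CSK4 and 129, 125, 126 and 85.3 CPM under both agents, against 279, 159, 305 and 372 CPM in vehicle. The 4 IFNg libraries lay close together and below all vehicle libraries. The changes were -1.31 ± 0.26, -1.07 ± 0.26 and -1.26 ± 0.26 (adjusted p = 0.000274, 0.004 and 0.00027). Hist2h3c1 of the Hist2 cluster had 6.46, 9.82, 9.33 and 4.47 CPM under IFNg, 6.15, 6.19, 5.80 and 3 CPM under Pam3CSK4 and 5.54, 3.99, 3.69 and 3.63 CPM under both agents, against 17.4, 13, 10.8 and 17.4 CPM in vehicle. No treated library overlapped vehicle, and the changes were -0.96 ± 0.28, -1.46 ± 0.29 and -1.79 ± 0.30 (adjusted p = 0.00928, 0.00111 and 2.32e-05).

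H4 genes had medians of -1.38, -1.07 and -1.16, and 13, 11 and 13 of 13 fell. Hist1h4f had 93.1, 89.5, 92.5 and 117 CPM under IFNg, 131, 165, 121 and 121 CPM under Pam3CSK4 and 119, 126, 152 and 89.6 CPM under both agents, against 196, 136, 299 and 303 CPM in vehicle. The IFNg libraries lay below all vehicle libraries, and under the other treatments vehicle replicate 2 overlapped. The changes were -1.25 ± 0.27, -0.80 ± 0.27 and -0.94 ± 0.27 (adjusted p = 0.000744, 0.0339 and 0.00603).

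**Figure D2:**
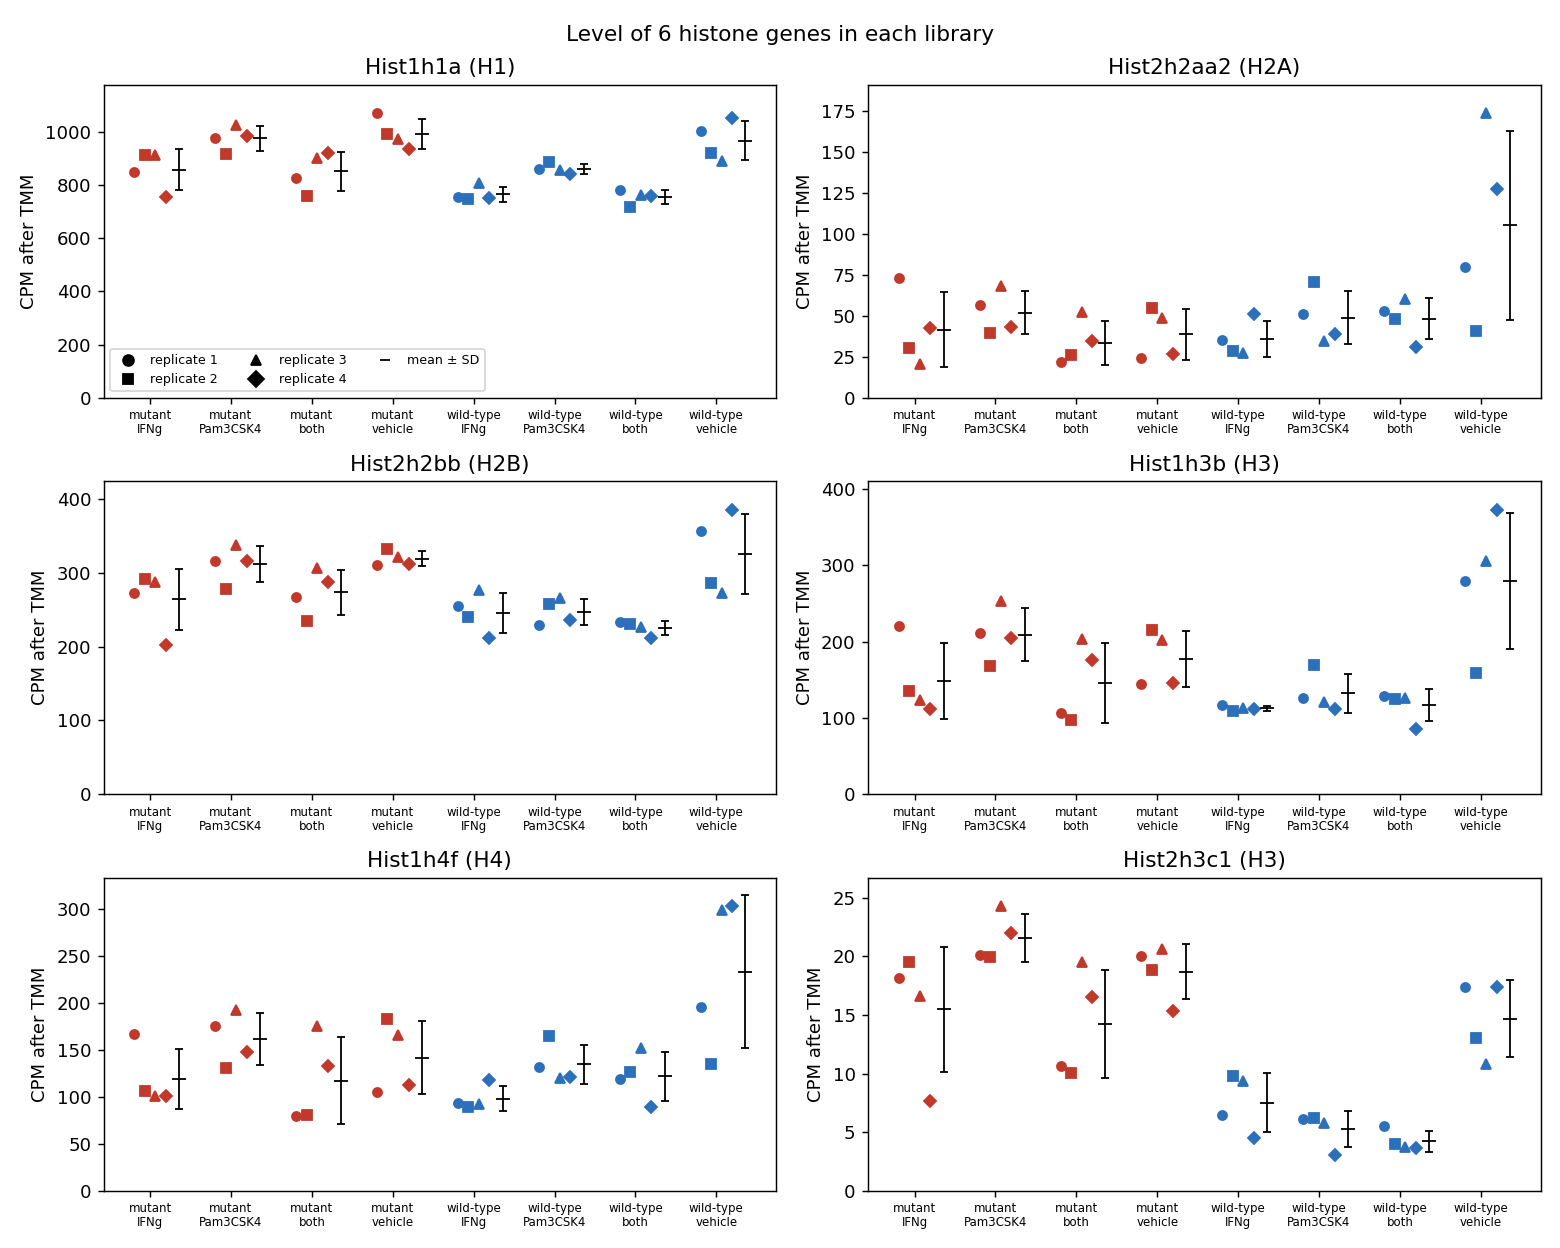
Normalized level (CPM after TMM, y axes from 0) of 6 histone genes in each library, by group on the x axis (red mutant, blue wild-type; symbols are replicates, bars mean ± SD, n = 4). Wild-type vehicle spreads most, with Hist1h4f between 136 and 303 CPM, and Hist2h3c1 is at 3 to 9.82 CPM in the treated wild-type libraries.

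The size of these falls depended on wild-type vehicle replicates 3 and 4 and on the structural share. Without these replicates the members' medians were -0.70, -0.30 and -0.46 under IFNg, Pam3CSK4 and both agents, with 20, 4 and 14 members called. With fewer vehicle libraries calls can be lost for any gene, and the share of all genes called in that fit is not given here. With the structural share in the model the medians were -0.54, -0.18 and -0.20, with 9, 0 and 3 called. In wild-type libraries this share was 19.4 to 28.8% in vehicle and 12.8 to 17.7% under treatment, without overlap. Share and treatment therefore cannot be told apart in these comparisons. Under IFNg 9 members fell in all 3 fits: Hist1h1a, Hist1h1b, Hist1h4i, Hist2h2be, Hist1h2bp, Hist1h2an, Hist1h2bb, Hist1h2bn and Hist1h2bh. Under both agents 3 did so (Hist2h2be, Hist1h2bb and Hist2h3c1), and under Pam3CSK4 0 did so. Complete separation of the 4 treated from the 4 vehicle libraries was seen for 32, 6 and 18 members, all lower, against 12.4%, 9% and 16.1% of all genes.

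Within wild-type vehicle, replicate 2 was the lowest library for 58 of the 63 members, and replicate 3 or 4 was the highest for 37 and 24. The ratio of the highest to the lowest library had a median of 2.34 over the members and 1.22 over all genes; in the other groups it was 1.41 to 1.99 for members and 1.12 to 1.18 for all genes. The spread differed by class, with median ratios of 1.41 for H1, 4.64 for H2A, 1.55 for H2B, 2.34 for H3 and 3.22 for H4. Across the 63 members the ratio ran with GC content (Spearman's rho 0.53), with the share of 50-base stretches found in other members (0.53) and against mean CPM (-0.57). These are descriptions over genes, which share libraries and sequence and are not independent. Ordered by this spread the classes ran H2A, H4, H3, H2B and H1, which is also their order by the median fall under IFNg. Both orders use the same wild-type vehicle libraries, so a match between them is partly built in.

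**Figure D3:**
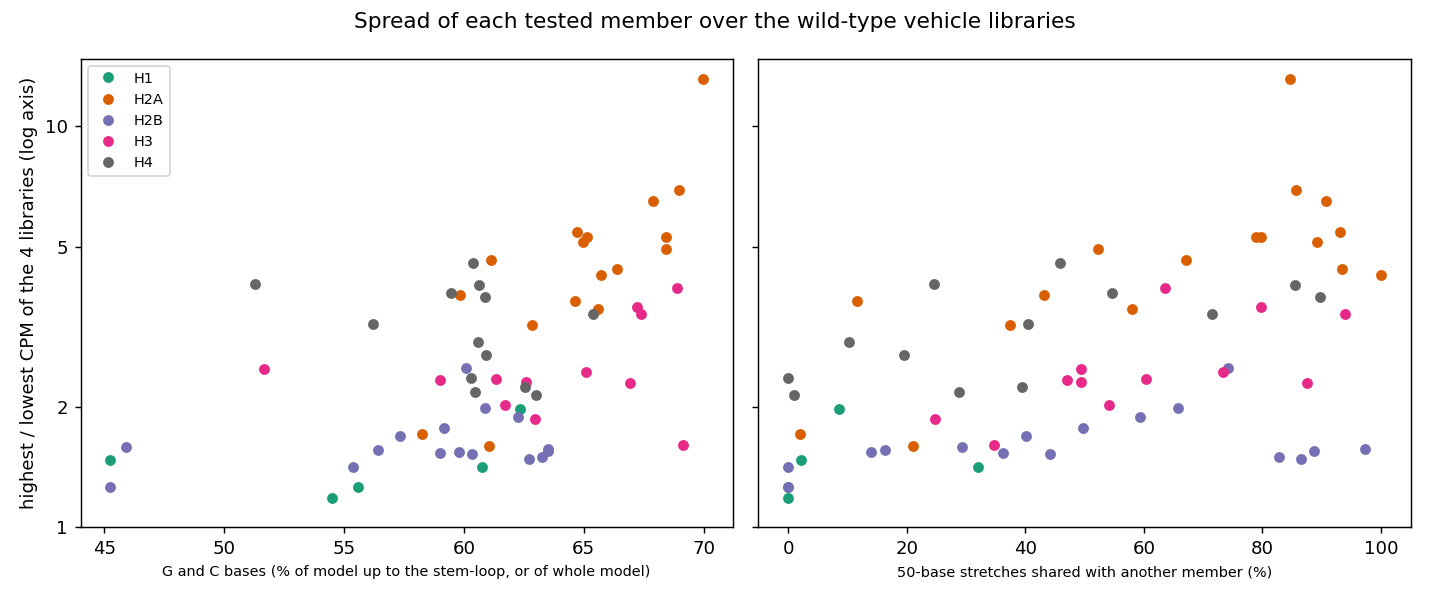
Highest over lowest CPM among the 4 wild-type vehicle libraries (log y axis) for each of the 63 tested members, against the GC content of the transcript model (left, %) and the share of its 50-base stretches found in another member (right, %), coloured by class. H2A genes, with a median ratio of 4.64, sit at the upper right, and H1 genes, at 1.41, near the bottom.

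In mutant cells the same treatments changed few members. Under IFNg 2 fell, under Pam3CSK4 1 fell and under both agents 5 fell, and 0 rose in each case. Over all genes 14.9%, 12.8% and 20.1% fell and 18.3%, 11.5% and 23.7% rose, so the members' shares were below the background. The members' median log2 fold changes were -0.13, 0.23 and -0.23. At an unadjusted p under 0.05 by edgeR, 3, 2 and 6 members differed in either direction, and DESeq2 called 3, 1 and 6 members, all lower. Hist2h2be fell under all 3 treatments. It had 4.79, 5.59, 5 and 4.42 CPM under IFNg, 5.63, 5.58, 5.30 and 5.62 CPM under Pam3CSK4 and 4.49, 3.47, 4.18 and 3.29 CPM under both agents, against 7.27, 7.67, 6.34 and 7.11 CPM in mutant vehicle. No treated library reached the vehicle range, and the changes were -0.52 ± 0.10, -0.36 ± 0.10 and -0.87 ± 0.10 (adjusted p = 0.000121, 0.00868 and 1.09e-08). These calls held with the structural share in the model. Leaving out wild-type vehicle replicates 3 and 4 is no check of them, since these comparisons hold no wild-type vehicle library.

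Hist1h1a was the other member called under IFNg in mutant cells. It had 852, 915, 916 and 755 CPM there and 828, 758, 903 and 919.6 CPM under both agents, against 1071, 994, 973 and 937 CPM in mutant vehicle. Every library of these treatments lay below every vehicle library, with changes of -0.21 ± 0.06 and -0.22 ± 0.06 (adjusted p = 0.00556 and 0.0023). The call under both agents held with the structural share in the model, and that under IFNg was lost (-0.10). The other members called under both agents were Hist1h1d, Hist1h2bl and Hist1h2bm. For Hist1h2bm the values were 107, 98.1, 129 and 111 CPM, against 139.6, 149, 144 and 134 CPM in vehicle (log2 -0.35 ± 0.11; adjusted p = 0.0119). Hist1h1c did not pass. Its mutant both-agent libraries had 356, 368, 735 and 674 CPM against 551, 729, 655 and 521 CPM in vehicle; the structural shares of those both-agent libraries were 18.9%, 18.8%, 27.8% and 26.3%, high in the same replicates. Hist2h3c1 had 18.2, 19.5, 16.6 and 7.63 CPM under IFNg, 20.1, 19.9, 24.3 and 22 CPM under Pam3CSK4 and 10.6, 10.1, 19.5 and 16.5 CPM under both agents, against 20, 18.8, 20.6 and 15.3 CPM in mutant vehicle, and none of the differences passed.

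**Figure D4:**
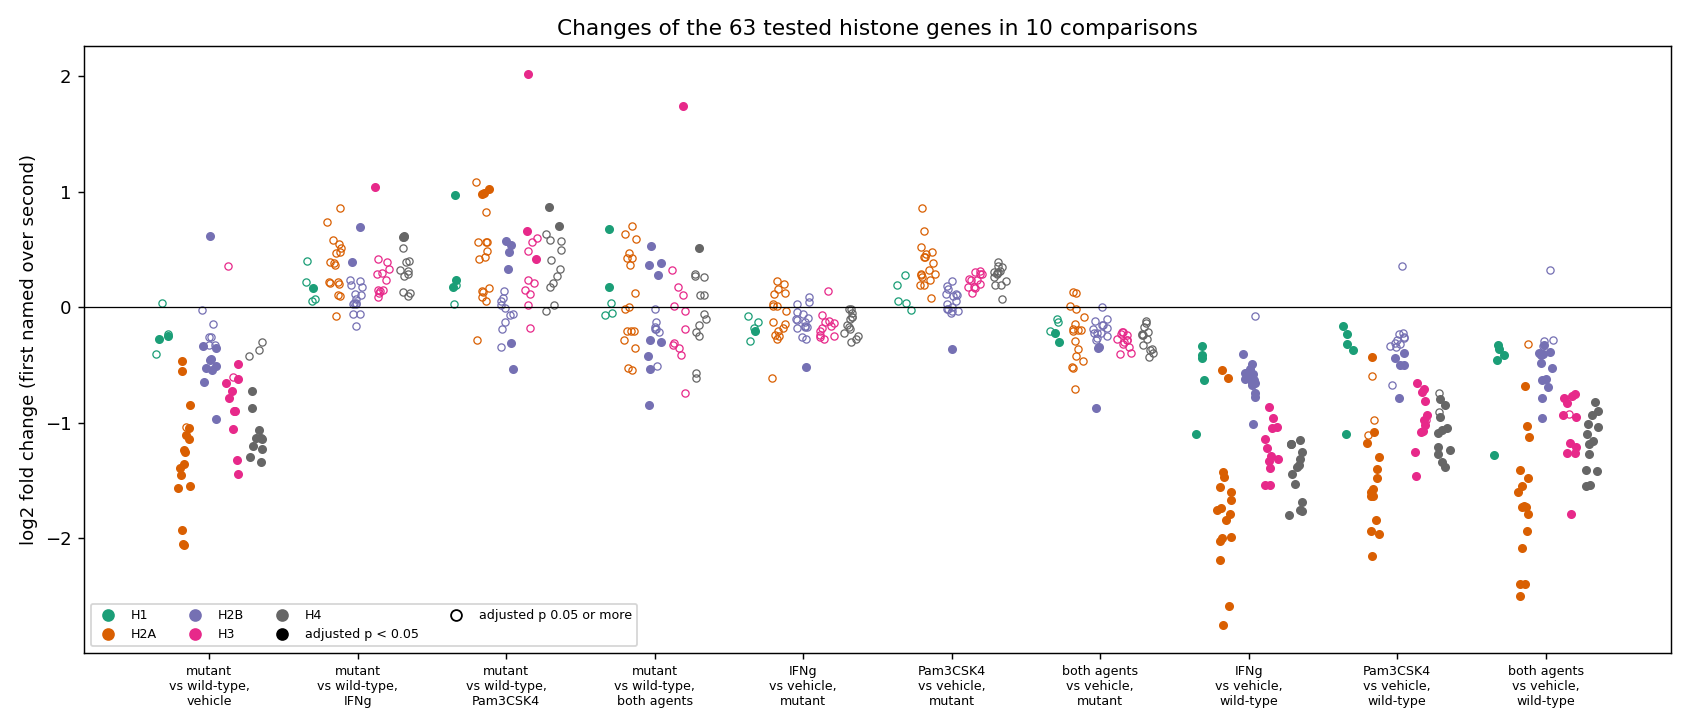
Log2 fold change (y axis, first-named over second) of each of the 63 tested members in 10 comparisons on the x axis, coloured by class; filled points have an adjusted p under 0.05 by edgeR's quasi-likelihood test. In the 3 wild-type treatment comparisons 62, 46 and 57 members are filled and below 0, and in the 3 mutant ones 2, 1 and 5.

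In vehicle, mutant cells had lower histone mRNA than wild-type cells. Of the 63 members, 47 were lower and 1 was higher, against 29.3% and 24.4% of all genes, and the median difference was -0.72. The class medians were -1.26 for H2A, -1.13 for H4, -0.75 for H3, -0.34 for H2B and -0.25 for H1. Hist1h3b had 144, 216, 202 and 146 CPM in mutant vehicle and 279, 159, 305 and 372 CPM in wild-type vehicle. The groups overlapped through wild-type replicate 2 (log2 -0.66 ± 0.25; adjusted p = 0.0317). Hist2h2aa1 was 1 of 3 members whose mutant libraries all lay below the wild-type ones, with 2, 3.84, 4.71 and 3.26 CPM in mutant and 8.81, 5.28, 27.1 and 16.1 CPM in wild-type vehicle (log2 -2.06 ± 0.46; adjusted p = 0.000437). Of all genes, 23.2% had every mutant library below every wild-type library in vehicle, a larger share than the members' 3 of 63. Without wild-type vehicle replicates 3 and 4, 0 members were lower and 2 higher, and the median was -0.29. Fitted on the libraries of this comparison alone, 9 were lower and 1 higher.

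Hist2h2be was higher in the mutant in every condition, in vehicle against the direction of most members and under IFNg and Pam3CSK4 in the same direction as most. With the library values given above, every mutant library exceeded every wild-type library of the same treatment, and the differences were 0.62 ± 0.10 in vehicle, 0.69 ± 0.11 under IFNg, 0.48 ± 0.11 under Pam3CSK4 and 0.53 ± 0.11 under both agents (adjusted p = 4.36e-06, 1.13e-06, 0.000162 and 8.88e-05). In vehicle it was the only member called in all 3 fits (all libraries, the structural share in the model, and no wild-type vehicle replicates 3 and 4). With the structural share in the model, its calls under IFNg and both agents also held, and that under Pam3CSK4 was lost (0.39). The comparisons under treatment hold no wild-type vehicle library, so leaving out replicates 3 and 4 of that group does not check them.

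Under treatment the genotype difference took another form. Under IFNg 6 members were higher in the mutant and 0 lower, against 25.7% and 27.4% of all genes; DESeq2 called 7 higher and 0 lower, and 7 had an unadjusted p under 0.05 by edgeR. Under Pam3CSK4 15 were higher and 2 lower, against 32.1% and 33.5%. Under both agents 8 were higher and 5 lower, against 30.5% and 29.7%. These shares lie below the background, and the median differences were 0.23, 0.24 and -0.06. Higher levels in mutant cells under all 3 treatments were called for 5 members: Hist1h1a, Hist1h2bp, Hist1h4i, Hist2h2be and Hist2h3c1. The share of all genes higher under all 3 was not counted, and cannot exceed the 25.7% higher under IFNg. Whether the 5 members exceed that share is thus not known. Hist1h4i averaged 25.4 ± 5.36, 32.2 ± 3.33 and 23.7 ± 7.29 CPM in mutant cells under IFNg, Pam3CSK4 and both agents, and 16.6 ± 0.434, 17.7 ± 2.14 and 16.5 ± 3.17 CPM in wild-type cells (SD, n = 4 each). With the structural share in the model 0 of the 5 kept all 3 calls. Hist2h2be kept those under IFNg and both agents and Hist2h3c1 those under Pam3CSK4 and both agents, Hist1h1a turned to -0.13 and -0.06 under Pam3CSK4 and both agents, Hist1h4i to -0.02 and -0.18, and Hist1h2bp lost every call.

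The largest differences under treatment were those of Hist2h3c1. Its mutant and wild-type values, listed above, did not overlap under Pam3CSK4, where the lowest mutant library had 19.9 CPM and the highest wild-type library 6.19 CPM, or under both agents. Under IFNg mutant replicate 4, at 7.63 CPM, fell within the wild-type range. The differences were 1.05 ± 0.28, 2.02 ± 0.29 and 1.74 ± 0.30 under IFNg, Pam3CSK4 and both agents (adjusted p = 0.00262, 9.67e-07 and 1.55e-05), and 0.36 in vehicle (adjusted p = 0.278). Its calls under Pam3CSK4 and both agents held with the structural share in the model. Hist1h1c was higher in the mutant by 0.97 ± 0.23 under Pam3CSK4 and 0.67 ± 0.23 under both agents (adjusted p = 0.000656 and 0.014) and reversed to -0.36 and -0.40 with that share in the model.

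Some H2B genes were lower in the mutant under treatment. Hist1h2br had 40.5, 34.2, 49.6 and 40.5 CPM in mutant cells under both agents, against 88.4, 70.2, 80.4 and 56.2 CPM in wild-type cells, without overlap (log2 -0.85 ± 0.20; adjusted p = 0.000806). Under Pam3CSK4 it had 71.5, 51.3, 40.8 and 44.9 CPM in mutant and 72.5, 69.7, 98.5 and 62.1 CPM in wild-type cells, with overlap through mutant replicate 1 (log2 -0.54 ± 0.20; adjusted p = 0.0219). Hist1h2bh, the other H2B gene lower under Pam3CSK4, differed by -0.31 ± 0.12 there and by -0.42 ± 0.12 under both agents (adjusted p = 0.0257 and 0.00354). Near-identical H2B genes share most of the sequence of Hist1h2br (88.7% of its 50-base stretches), so its level is uncertain on its own. With the structural share in the model, the members' medians under Pam3CSK4 and both agents moved to -0.59 and -0.80, and 14 and 31 members were lower in the mutant. Under Pam3CSK4 that share was 25.2 to 30.2% in mutant and 13.6 to 16.9% in wild-type libraries. Under both agents it was 18.8 to 27.8% in mutant and 12.8 to 14.2% in wild-type libraries. Share and genotype therefore cannot be told apart in these 2 comparisons.

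**Figure D5:**
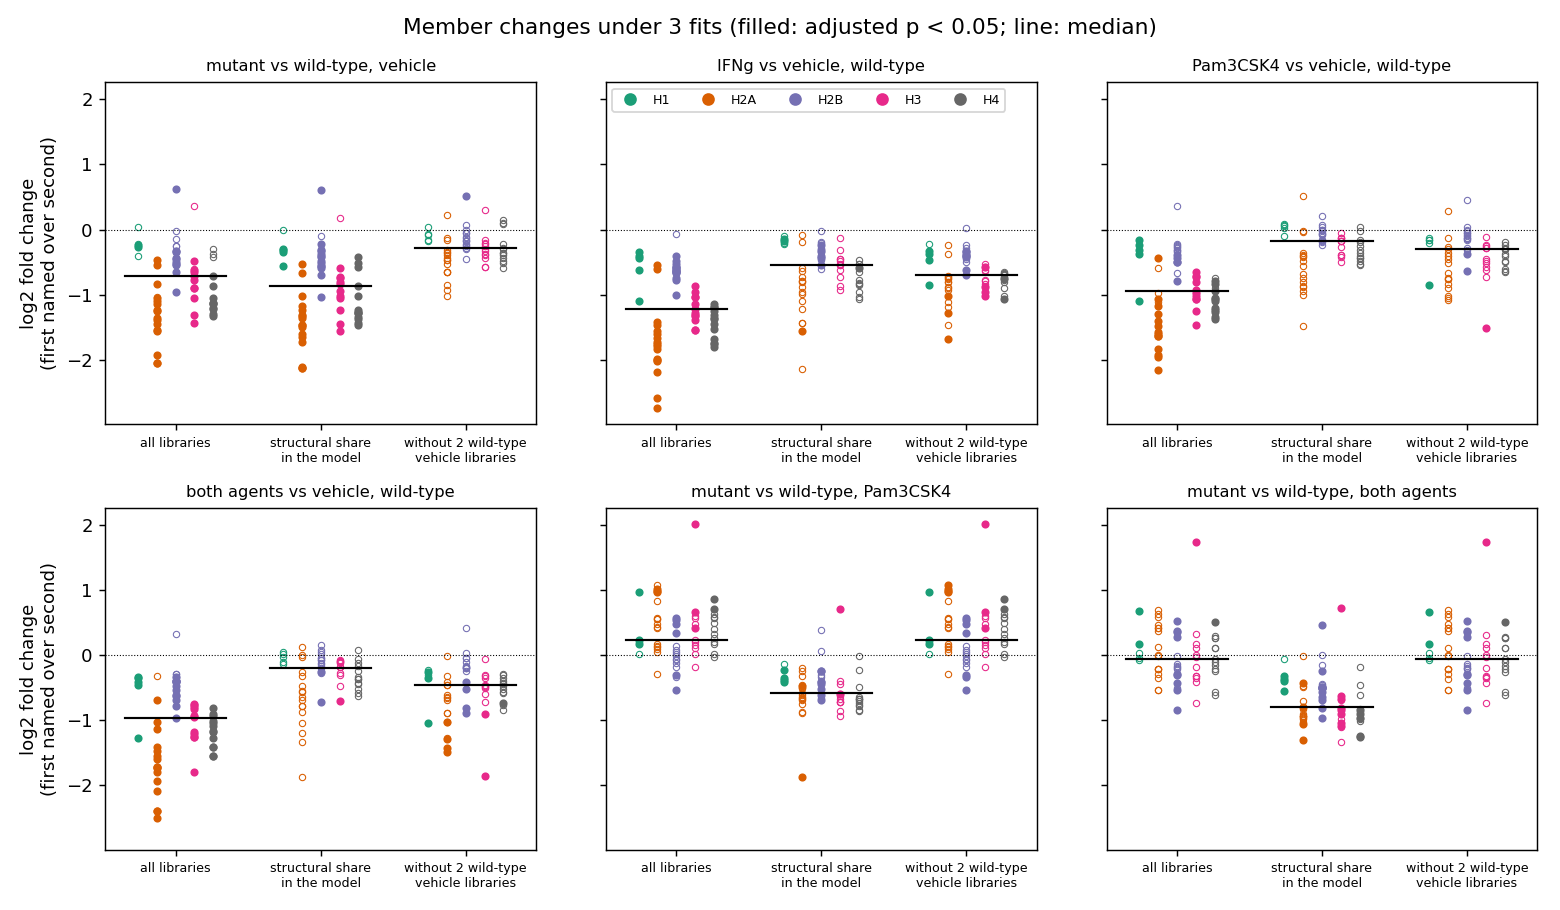
Log2 fold change (y axis) of the 63 members in 6 comparisons, fitted on all libraries, with the structural RNA share in the model, and without wild-type vehicle replicates 3 and 4; filled points have an adjusted p under 0.05, colours are classes and lines medians. In wild-type IFNg the median is -1.22, -0.54 and -0.70, and in mutant against wild-type under Pam3CSK4 it is 0.24, -0.59 and 0.24.

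The difference between the genotypes' responses was tested as an interaction, the mutant response minus the wild-type response. All calls were positive, meaning that the mutant change lay above the wild-type change. This need not be a smaller fall. Under Pam3CSK4 the mutant change was positive for 56 members and negative for 7, with a median of 0.23 and 0 called higher. For Pam3CSK4 34 members were called, with a median of 1.17, against 14.3% of all genes positive and 12.3% negative. For both agents 7 were called, with a median of 0.71, against 8.8% and 6.99% of all genes. For IFNg 1 was called, with a median of 1.03, against 0.827% and 0.82%. At an unadjusted p under 0.05 the IFNg interaction had 57 members, but the share of all genes at that threshold was not counted. By class, the Pam3CSK4 interaction was called for 13 of 17 H2A, 10 of 13 H4, 7 of 12 H3, 2 of 16 H2B and 2 of 5 H1 genes. Hist1h2an was called for all 3 treatments (2.78 ± 0.70, 3.01 ± 0.67 and 2.35 ± 0.70; adjusted p = 0.0386, 0.00157 and 0.0229). In mutant cells it had 1.95, 1.53, 0.656 and 0.906 CPM under IFNg, against 0.892, 1.43, 1.58 and 0.995 CPM in vehicle. Hist2h3c1 was called for Pam3CSK4 and both agents (1.67 ± 0.39 and 1.39 ± 0.40; adjusted p = 0.00262 and 0.0192). Hist2h2be was not called for any treatment (0.08, -0.14 and -0.09), which does not show that the lines responded alike. Without wild-type vehicle replicates 3 and 4 the interaction counts were 0, 5 and 1, and with the structural share in the model no member was called for Pam3CSK4 or for both agents.

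For each of the 10 most abundant genes by class, the member most like it over the 8 group means was sought by Pearson's r of log2 CPM. It had an r of at least 0.945, and Hist1h4m and Hist1h3h reached 0.996. Each is the highest of all members' values over few points, among genes that share libraries and reads, so a high r is built into the choice. For Hist1h1a the most like were Hist2h2bb (r = 0.945) and Hist2h2be (0.917). Its order of group means differed from that of most members, since mutant vehicle (994 CPM) and mutant Pam3CSK4 (976 CPM) stood above wild-type vehicle (968 CPM), differences within their spreads. For 58 of the 63 members wild-type vehicle had the highest group mean.

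Genes that act on histone mRNA and its genes' transcription were read from lists. Of 35 tested genes of histone mRNA processing and decay, 7 rose and 6 fell in wild-type cells under IFNg, 6 rose and 5 fell under Pam3CSK4, and 11 rose and 6 fell under both agents. Over all genes, 17.8%, 10.4% and 21.2% rose and 17.6%, 11.7% and 22.4% fell in these comparisons, as given above, and the list's medians lay between -0.01 and 0.05. Slbp averaged 88.6 ± 0.615, 93.8 ± 4.41 and 82.7 ± 1.80 CPM in mutant cells under IFNg, Pam3CSK4 and both agents, against 100.9 ± 3.14 CPM in mutant vehicle; in wild-type cells it averaged 106 ± 3.92, 107 ± 1.29 and 99.0 ± 2.38 CPM, against 115 ± 6.51 CPM in vehicle (SD, n = 4 each). It was called lower in all 10 comparisons of groups, with log2 fold changes between -0.29 and -0.11. Cstf2t, a paralog of the cleavage stimulation factor subunit gene Cstf2, had the greatest difference of the list in vehicle, with 55.1 ± 2.18 CPM in mutant and 0.00596 ± 0.0119 CPM in wild-type cells (SD, n = 4 each), nearly absent from the wild-type line. Lsm11, a subunit of the U7 particle that processes histone mRNA ends, was higher in 6 of 10 comparisons, and Npat was called in 2 of 10, once in each direction. Of 25 genes of histone gene transcription, 6, 3 and 10 rose and 3, 3 and 5 fell in wild-type cells under IFNg, Pam3CSK4 and both agents. Of 28 tested histone chaperone and assembly genes, 5, 4 and 7 rose and 5, 3 and 6 fell. These counts are to be read against the same shares of all genes, and the medians of the 2 lists lay between 0.01 and 0.07.

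Of 52 S phase and DNA replication genes, 22, 14 and 22 fell and 2, 2 and 4 rose in wild-type cells under IFNg, Pam3CSK4 and both agents, and 17, 19 and 21 fell and 4, 2 and 5 rose in mutant cells. Over all genes 17.6%, 11.7% and 22.4% fell in wild-type and 14.9%, 12.8% and 20.1% in mutant cells. Their medians were small, between -0.10 and -0.04 in these 6 comparisons. Cdt1, which licenses replication origins, averaged 27.1 ± 1.56 CPM under IFNg, against 40.2 ± 8.13 CPM in wild-type vehicle (log2 -0.57 ± 0.12; adjusted p = 0.000719 by edgeR's quasi-likelihood test). Ccne2, a cyclin E gene, had a log2 fold change of -0.76 under Pam3CSK4, at 65.0 ± 3.55 CPM, against 109.8 ± 27.4 CPM in vehicle (adjusted p = 0.00328). Of 25 genes of G2 and mitosis, 6, 11 and 9 rose and 0, 2 and 2 fell in wild-type cells (17.8%, 10.4% and 21.2% of all genes rose), and 4, 1 and 3 rose and 2, 1 and 10 fell in mutant cells (18.3%, 11.5% and 23.7% of all genes rose and 14.9%, 12.8% and 20.1% fell). In mutant against wild-type vehicle 1 of these genes was higher and 13 were lower. In the same comparison 22 of the S phase genes were lower and 8 higher, against 29.3% and 24.4% of all genes.

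Replacement histone genes, most of which have introns, poly(A) tails and expression outside S phase, were a further list. Of 11 tested, 9, 5 and 8 fell and 1 rose in wild-type cells under IFNg, Pam3CSK4 and both agents. In these comparisons 17.6%, 11.7% and 22.4% of all genes fell and 17.8%, 10.4% and 21.2% rose. H2afz, which encodes H2A.Z, averaged 873 ± 58.5, 817 ± 51.2 and 831 ± 39.3 CPM, against 1148 ± 140.1 CPM in vehicle, and H2afy, which encodes macroH2A, was the gene that rose, with log2 fold changes of 0.11, 0.09 and 0.17. Small structural RNA genes also make transcripts without a poly(A) tail. Of 11 tested by name, 10, 10 and 11 fell and 0 rose in wild-type cells under IFNg, Pam3CSK4 and both agents, with medians of -1.01, -1.43 and -1.42. In mutant cells 0, 0 and 1 fell, against 14.9%, 12.8% and 20.1% of all genes. Between the lines, 5, 9 and 6 were higher in mutant cells under IFNg, Pam3CSK4 and both agents, against 25.7%, 32.1% and 30.5% of all genes. In vehicle 3 of the 11 were lower in the mutant, near the 29.3% of all genes. These genes are among those counted in the structural share.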

How the data were processed

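Total RNA depleted of ribosomal RNA was sequenced in 32 libraries. Per the submitters' processing notes, reads were processed with STAR 2.5.2b and RSEM 1.3.0 on mm10; the annotation release is not given in the sources used here. What the authors deposited were gene tables with expected counts, which RSEM divides among genes that match the same read, and with TPM, a level per transcript length. Gene symbols and types came from GENCODE vM21, which matched 55394 of 55487 identifiers (93 did not match). Expected counts were rounded to whole numbers and filtered with edgeR's filterByExpr, which removed 40618 genes. TMM normalization and edgeR 4.0.16's quasi-likelihood fit (R 4.3.3) then took all 8 groups of 4 libraries in 1 model without covariates, with Benjamini-Hochberg adjustment over 14869 genes in each of 13 comparisons and a threshold of 0.05. CPM values are after TMM. Where members are counted at an unadjusted p under 0.05, the share of all genes was not counted. DESeq2 1.42.0 was an alternative, and the fit was checked on simulated counts. The full values given are those of the 2 members per class with the highest mean TPM and of members with the largest called changes per comparison; Hist1h4i, Slbp, Lsm11, Npat and H2afy were chosen after their values were seen. The members and gene lists were chosen with earlier results of these data known. The promoter motifs, and the limit of 500 bases between annotated and RefSeq start (98 at most was used), were chosen after seeing the sequences. Shared sequence was measured in 50-base stretches. The number of libraries, 4 per group, limits precision.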

Additional observations from a re-analysis of the deposited data

Results flagged for a closer look

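In 10 of 192 combinations of a named gene or library measure and a group of 4 libraries, 1 library stood far from the other 3. Chance gives about 1 in 20. The library measures were the histone share, the structural share and the mean fragment length, and all 10 cases were genes. The measure is the gap to the nearest library divided by the group's range. Hist1h1a stood out in wild-type IFNg replicate 3 (808 CPM against 747 to 757 CPM; 0.834), and Hist1h4f and Hist1h4m in wild-type IFNg replicate 4 (117 CPM against 89.5 to 93.1 CPM, 0.872, and 70.1 CPM against 46.5 to 50.5 CPM, 0.8294). Hist1h4f also stood out in mutant IFNg replicate 1 (167 CPM against 100.7 to 107 CPM; 0.91). In wild-type Pam3CSK4, replicate 2 was high for Hist1h2bb (311 CPM against 242 to 251 CPM; 0.864) and for Hist1h2bh (168 CPM against 142 to 145 CPM; 0.89), and replicate 4 was low for Hist2h3c1 (3 CPM against 5.80 to 6.19 CPM; 0.877). In wild-type cells given both agents, replicate 4 was low for Hist1h3b (85.3 CPM against 125 to 129 CPM; 0.895) and for Hist1h1c (287 CPM against 347 to 353 CPM; 0.91). Hist2h2be was low in mutant Pam3CSK4 replicate 3 (5.30 CPM against 5.58 to 5.63 CPM; 0.848).

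The responses of the genotypes differed by the interaction test for 1 member under IFNg, 34 under Pam3CSK4 and 7 under both agents, all positive, against 0.827%, 14.3% and 8.8% of all genes called positive; the counts for IFNg and both agents are thus near the share over all genes. Among the named genes with the largest differences, mutant minus wild-type response, Hist1h2an had 2.78, 3.01 and 2.35 on the log2 scale under these treatments, and Hist1h2af had 2.40 under Pam3CSK4 and 2.20 under both agents. These counts share the wild-type vehicle libraries, and what they become without replicates 3 and 4 of that group is given below.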

How the results depend on the processing

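Counts are members called of 63, higher and lower together. The shares of all genes called under these settings are not given here, so a lost call need not be particular to the members. Without wild-type vehicle replicates 3 and 4, a setting chosen after seeing the data, mutant against wild-type in vehicle gave 2 (2 higher, 0 lower, reversed), wild-type cells 20 under IFNg, 4 under Pam3CSK4 and 14 under both agents, and the interactions 0, 5 and 1. With the share of structural RNA in the model, mutant against wild-type gave 4 under IFNg (1 higher, 3 lower), 15 under Pam3CSK4 (1 and 14) and 33 under both agents (2 and 31), all reversed in balance; mutant cells gave 1 under IFNg; wild-type cells 9, 0 and 3; and the interactions 0 for Pam3CSK4 and 0 for both agents. Fitted on the libraries of the comparison alone, mutant against wild-type in vehicle gave 10, mutant cells 4 under IFNg and 3 under Pam3CSK4 (2 higher and 1 lower, reversed), wild-type cells 8 under Pam3CSK4 and 33 under both agents, and the interactions 0 for IFNg and 1 for both agents. With fragment length as a covariate, mutant cells gave 2 under Pam3CSK4 and 3 under both agents, and the interaction for both agents 16. Without a filter on low counts, mutant cells gave 3 under both agents, and the interactions 0 for IFNg and 4 for both agents. DESeq2 gave interactions of 8 for IFNg and 12 for both agents. Counted as members of class and cluster sums that were called, here of 66 members because sums take in genes too low to test singly, mutant against wild-type gave 1, 9 and 2 under IFNg, Pam3CSK4 and both agents, mutant cells 0 under Pam3CSK4 and 0 under both agents, and the interactions 0, 62 and 0; a sum gives no value for a single member, so single genes were left out of that setting after it was seen. The cause of these shifts was not tested.

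Leaving out 1 library at a time, the counts ran from 26 to 56 for mutant against wild-type in vehicle, 5 to 8 under IFNg, 11 to 22 under Pam3CSK4 and 7 to 13 under both agents (10, with 3 higher and 7 lower, without mutant both-agent replicate 3, which reversed the balance); 2 to 3, 1 to 1 and 2 to 8 in mutant cells; 60 to 62, 17 to 59 and 43 to 62 in wild-type cells; and 0 to 26, 21 to 51 and 1 to 22 for the interactions. Of 114 results on named genes, 14 reversed with the structural share in the model, 62 lost the call and 38 held; 52 lost it without wild-type vehicle replicates 3 and 4, 40 on the libraries of the comparison alone, 19 without a filter, 5 with fragment length as a covariate and 1 with protein-coding library sizes. The reversed ones in mutant against wild-type under Pam3CSK4 were Hist1h1a (-0.13), Hist2h2bb (-0.25), Hist1h2bb (-0.25), Hist1h3b (-0.60), Hist1h2ac (-0.47) and Hist1h1c (-0.36), and under both agents Hist1h1a (-0.058), Hist2h2bb (-0.15), Hist1h2bb (-0.25) and Hist1h1c (-0.40). In wild-type cells they were Hist1h1a (0.059), Hist1h1b (0.068) and Hist2h2bb (0.040) under Pam3CSK4 and Hist1h1b (0.015) under both agents. All 114 kept direction and call with DESeq2, with RLE size factors and with a filter of 1 CPM in 4 libraries. With a replicate block 110 did so and 4 lost the call; replicate numbers did not pair the libraries, since in 0 of 10 comparisons were all same-number correlations above 0.1 (-0.376 to 0.427). Over 48 replicate pairs, counts differed by 6.96 to 151 times sampling noise (chi-square per degree of freedom), so no library was counted as a copy.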
